A study of Mus musculus with 6 samples.

Results

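Mitochondrial fatty acid oxidation was examined through 10 genes, chosen by name as the symbols Cpt1a, Cpt1b, Cpt2, Acadvl, Acadl, Acadm, Hadha, Hadhb, Acaa2 and Ppara, out of 25160 features in the deposited counts. All 10 were present under a single symbol match and all 10 passed the filter for low counts, which left 15925 features for testing. The libraries came from whole mammary glands, the fourth pair with the lymph nodes taken out, of female wild-type FVB/N mice, an inbred strain. Metformin was given to 3 mice at 200 mg/kg each day by intraperitoneal injection between 8 and 18 weeks of age, and 3 control mice received saline, with 1 library for each mouse. Both groups were kept on an estrogen-free diet. Metformin is a biguanide drug for type 2 diabetes that inhibits the mitochondrial respiratory chain and activates AMPK, and the design asks how the gland transcriptome differs after this treatment. A gland of this kind is mostly adipose tissue with epithelial ducts, vessels, immune cells and, at its edges, muscle, so fewer cells of a type and less RNA per cell cannot be told apart.

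Long-chain fatty acids reach the mitochondrial matrix through the carnitine shuttle. The CPT1 enzymes of the outer membrane load the acyl group onto carnitine, a step that malonyl-CoA inhibits, and CPT2 on the inner membrane transfers it back to coenzyme A. Acyl-CoA dehydrogenases of different chain-length preference then open each beta-oxidation cycle, and the trifunctional protein and a thiolase complete it. PPARA is a nuclear receptor that is activated by fatty acids and drives many of these genes in liver and other oxidative tissues. Brown and beige adipocytes, which burn fatty acids to produce heat, express this pathway at high levels, and the inguinal fat pad around the fourth gland is a known site of beige adipocytes in mice.

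The libraries held 35375365 to 47370885 counts. Correlations between pairs of libraries over log2 CPM ranged from 0.938 to 0.968, so no library was a copy of another. Mammary epithelial markers were detected in every library, with a summed level over 8 markers of 862 to 1604 CPM in control and 577 to 896 CPM in metformin-treated mice. Milk protein genes set 2 libraries apart: 6 of them summed to 40080 and 34629 CPM in controls 1 and 2, but to 524 CPM in control 3 and to 223 to 771 CPM in the treated mice. Levels are given as CPM, counts scaled to library size after TMM normalization, which also corrects for composition. Differences are log2 fold changes, metformin over control, from the edgeR quasi-likelihood test fitted to all 15925 features, with a standard error (SE) and a Benjamini-Hochberg adjusted p. Following the criteria of the study, a gene was past the thresholds when it differed by 1.5-fold or more and its unadjusted p was below 0.01.

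The 10 genes did not differ between the groups beyond the spread between mice. The 10 transcripts together took 0.265% to 0.790% of the counts in control libraries and 0.271% to 0.890% in metformin libraries. None was past the thresholds, with 0 of 10 against 1.7% of all tested features (0 higher against 0.421%, 0 lower against 1.28%). The groups overlapped in all 10, where they did not overlap in 13.2% of all features (6.24% higher and 7.01% lower in metformin). At an adjusted p under 0.05 edgeR called 0% of all features, where DESeq2 called 200 of them but 0 of the 10, and at an unadjusted p under 0.05 it called 0 of the 10 beside 7.53% of all features, and the smallest p among the 10 was 0.422, for Acaa2. DESeq2 and limma-voom likewise had 0 of the 10 past the thresholds. What varied was the mouse: for 8 of the 10 genes, metformin 2 was the highest library, control 1 the next, metformin 3 the next and control 3 the fourth.

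**Figure D1:**
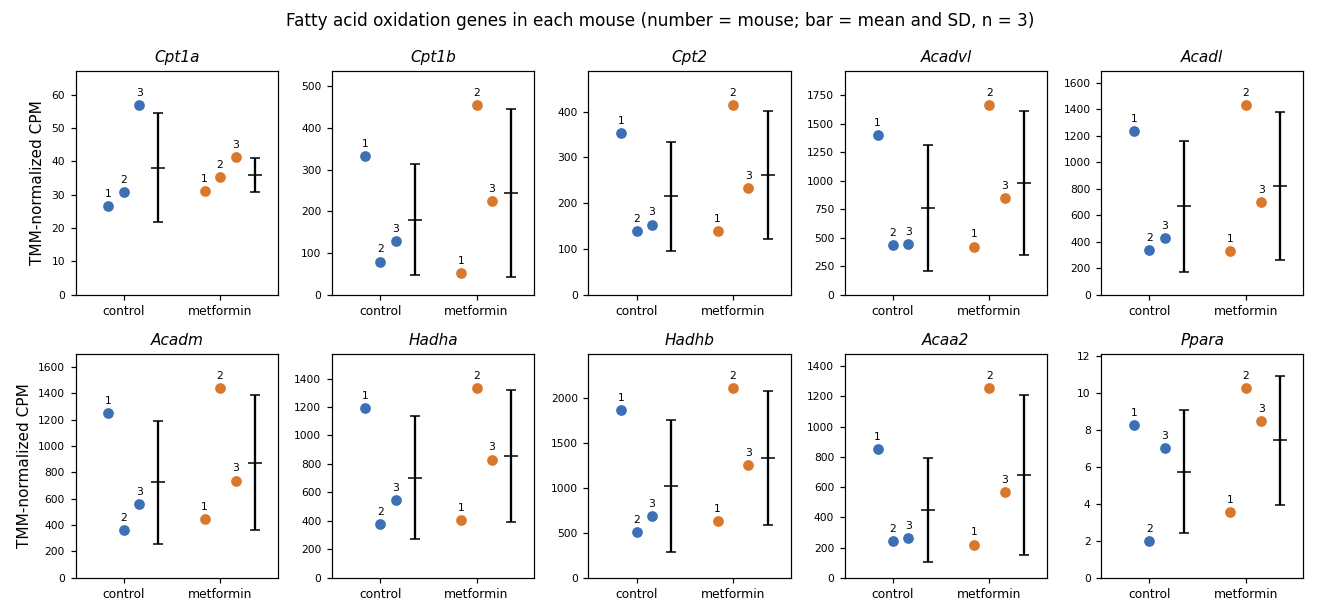
TMM-normalized CPM (y axis, linear, from 0) of each of the 10 genes in every control (blue) and metformin-treated (orange) mouse, with the mouse number above each point and the mean and SD of 3 mice as a black bar. Metformin 2 is the highest point in every panel but that of Cpt1a, and control 1 is the next highest in all of those panels but that of Ppara.

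The promoters of 3 members are printed first because they carry the letters of a nuclear receptor half-site, which PPARA and its partner receptors recognise in pairs. RefSeq promoter sequences of GRCm38.p6 were found for 8 of the 10 genes, and the 250 bases before each start were searched on both strands. The sequences read 5′ to 3′ on the strand of the gene, with AGGTCA, or its reverse complement TGACCT, in capitals.
Acadm, chr3:153944644-153944893, minus strand: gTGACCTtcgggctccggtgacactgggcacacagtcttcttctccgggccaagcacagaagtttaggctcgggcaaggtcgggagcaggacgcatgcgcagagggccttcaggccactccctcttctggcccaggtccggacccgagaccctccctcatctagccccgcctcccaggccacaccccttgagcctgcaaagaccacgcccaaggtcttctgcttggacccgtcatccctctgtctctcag
Acadvl, chr11:70015429-70015678, minus strand: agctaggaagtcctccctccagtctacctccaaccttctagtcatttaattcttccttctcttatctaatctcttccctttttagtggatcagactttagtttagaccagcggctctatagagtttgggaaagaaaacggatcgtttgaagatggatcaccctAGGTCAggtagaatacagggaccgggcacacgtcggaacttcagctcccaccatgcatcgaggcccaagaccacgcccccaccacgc
Cpt1a, chr19:3323051-3323300, plus strand: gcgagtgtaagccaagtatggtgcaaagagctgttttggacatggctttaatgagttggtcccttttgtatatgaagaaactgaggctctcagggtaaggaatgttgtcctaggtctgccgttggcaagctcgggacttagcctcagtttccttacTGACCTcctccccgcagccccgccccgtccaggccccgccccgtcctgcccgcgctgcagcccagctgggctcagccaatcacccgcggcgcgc
Counted back from -1, the last base before the start, the match began at -249 in Acadm, at -87 in Acadvl and at -94 in Cpt1a. AGGTCA was thus in 3 of 8 member promoters, and it was in 14.0% of all 32851 promoters of this length. The direct repeat, which is AGGTCA, any 1 base and AGGTCA again, was in 0 of the 8 and in 0.0335% of all promoters, and the extended form TNAAGGTCA, which contains AGGTCA, was in 0 of the 8 and in 1.14% of all. Cpt1a, whose level across the mice had another order than that of Acadm and Acadvl, carried the same 6-letter match as they did. Sequence outside these 250 bases was not searched, and the part of any match in the level of a gene was not tested.

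Hadha and Hadhb lie head to head on chromosome 5. Their RefSeq starts, at 30154980 on the minus strand and 30155253 on the plus strand, have 272 bases between them, and the stretch before Hadhb is shown because it covers most of that interval. The GENCODE annotation instead starts Hadha at 30155162 and Hadhb at 30155248, so by that annotation most of the stretch lies within Hadha. GGGCGG, the GC box, is in capitals.
Hadhb, chr5:30155003-30155252, plus strand: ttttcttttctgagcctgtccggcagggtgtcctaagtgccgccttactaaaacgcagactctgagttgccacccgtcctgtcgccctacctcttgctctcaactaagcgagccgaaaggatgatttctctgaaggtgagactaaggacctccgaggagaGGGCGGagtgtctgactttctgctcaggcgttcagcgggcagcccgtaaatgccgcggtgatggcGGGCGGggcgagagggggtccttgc
GGGCGG, on either strand, was in 6 of the 8 member promoters (Acadl, Cpt2, Hadha, Hadhb, Ppara and Cpt1a) and in 32.7% of all. The windows of Hadha and Hadhb overlap, and the single match of Hadha is the same 6 bases as the first of the matches in capitals before Hadhb, so that match was counted for both genes. CCAAT was in 1 of the 8, Cpt1a, and in 33.8% of all.

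On GRCm38, Cpt1b lies at chr15:89416405-89425863 on the minus strand, Cpt1a at chr19:3322334-3385733 on the plus strand, Acadvl at chr11:70010183-70015411 on the minus strand and Acadm at chr3:153922357-153944632 on the minus strand, all annotated as protein-coding. The printed Cpt1a stretch, which ends before the RefSeq start, lies inside the Cpt1a span given here, because this annotation begins the gene further upstream. Values are counts over whole genes, so they do not separate exons, introns or isoforms.

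Within the carnitine shuttle, the muscle and brown fat form of the first enzyme varied most. Cpt1b read 333, 79.0 and 129 CPM in controls 1, 2 and 3, and 52.3, 456 and 225 CPM in treated mice 1, 2 and 3. Both the highest and the lowest library were metformin libraries, 8.71-fold apart, and the control values lay between them. Its log2 fold change was 0.44 (SE 0.77, 95% interval -1.35 to 2.23, edgeR adjusted p = 0.901). Of the 3372 exonic bases of Cpt1b, 2744 are shared with the read-through gene Gm44502 on the same strand, which was itself at 5.65 to 33.3 CPM, so part of the reads could be assigned to either. Cpt2, the inner membrane enzyme, was at 352, 140 and 153 CPM in the controls and at 139, 415 and 232 CPM in the treated mice, with the mice in the same order as for Cpt1b. The highest and lowest libraries again both belonged to the metformin group, and the log2 fold change was 0.28 (SE 0.48, interval -0.84 to 1.41, edgeR adjusted p = 0.898).

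Cpt1a, the liver form that most tissues also express, did not follow this order. It was at 26.6, 30.8 and 56.9 CPM in controls 1, 2 and 3, and at 31.1, 35.3 and 41.4 CPM in treated mice 1, 2 and 3. Control 3 was its highest library and control 1, near the top for Cpt1b, its lowest. The log2 fold change was -0.09 (SE 0.29, interval -0.77 to 0.59, edgeR adjusted p = 0.958), the narrowest interval among the 10 genes, and it became 0.32 without control 3. Set against each other per transcript length, on the FPKM scale of the authors, Cpt1b exceeded Cpt1a by 18.6-fold, 3.83-fold and 3.37-fold in controls 1, 2 and 3, and by 2.54-fold, 19.3-fold and 8.09-fold in treated mice 1, 2 and 3. The mean log2 ratio of Cpt1a to Cpt1b was -2.64 ± 1.37 (SD, n = 3) in control and -2.88 ± 1.47 (SD, n = 3) in metformin-treated mice, a difference far smaller than the spread within either group.

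**Figure D2:**
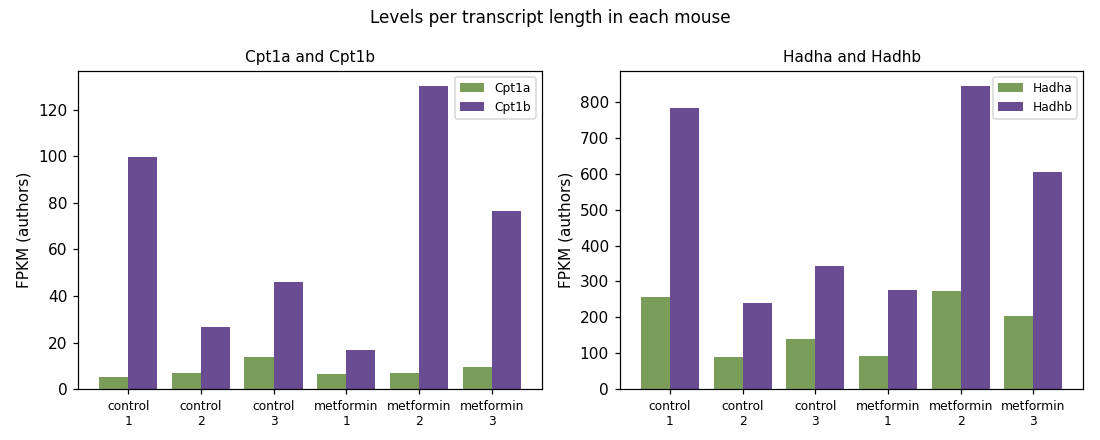
Deposited FPKM (y axis, linear, from 0) of Cpt1a and Cpt1b on the left and of Hadha and Hadhb on the right, in each of the 6 mice, with 1 bar per gene and mouse. Cpt1b exceeds Cpt1a in every mouse by a factor that runs from 2.54 to 19.3, whereas the factor of Hadhb over Hadha stays between 2.46 and 3.10.

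The 3 acyl-CoA dehydrogenases of the matrix and its membrane shared 1 pattern. Acadvl, which acts on very long chains, was at 1399, 433 and 444 CPM in controls 1, 2 and 3, and at 421, 1664 and 850 CPM in treated mice 1, 2 and 3, which gave a log2 fold change of 0.37 (SE 0.62, edgeR adjusted p = 0.897). Acadl, the long-chain enzyme, was at 1238, 333 and 426 CPM in the controls and at 329, 1433 and 699 CPM in the treated mice, which gave a log2 fold change of 0.30 (SE 0.65, edgeR adjusted p = 0.925). Acadm, the medium-chain enzyme, whose human counterpart is the gene of medium-chain acyl-CoA dehydrogenase deficiency, was at 1251, 360 and 561 CPM in the controls and at 445, 1438 and 737 CPM in the treated mice, which gave a log2 fold change of 0.27 (SE 0.56, edgeR adjusted p = 0.921). In each of the 3, control 1 stood with metformin 2, and metformin 1 stood with control 2. Of the 2686 exonic bases of Acadvl, 1151 are also exonic in Dvl2 on the opposite strand, which was at 13.1 to 24.0 CPM.

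Hadha and Hadhb, the subunits of the trifunctional protein, which assembles from equal numbers of both, stayed in a nearly fixed ratio. Hadha, with the hydratase and hydroxyacyl-CoA dehydrogenase activities, was at 1195, 375 and 544 CPM in controls 1, 2 and 3, and at 407, 1332 and 830 CPM in treated mice 1, 2 and 3, which gave a log2 fold change of 0.28 (SE 0.54, edgeR adjusted p = 0.913). Hadhb, the thiolase subunit, was at 1858, 507 and 682 CPM in the controls and at 626, 2104 and 1253 CPM in the treated mice, which gave a log2 fold change of 0.39 (SE 0.59, edgeR adjusted p = 0.886). While each of the 2 genes varied over 3.55-fold and 4.15-fold between mice, Hadhb over Hadha in FPKM was 3.05, 2.65 and 2.46 in the controls and 3.02, 3.10 and 2.97 in the treated mice. The log2 ratio of Hadha to Hadhb was -1.44 ± 0.16 (SD, n = 3) in control and -1.60 ± 0.03 (SD, n = 3) in metformin-treated mice, and control 1, at -1.61, lay within the range of the treated mice. Such joint variation was not particular to these 2 subunits. Acadl was at 558, 169 and 229 FPKM in controls 1, 2 and 3, beside 571, 199 and 216 FPKM for Acadvl. In treated mice 1, 2 and 3 Acadl was at 156, 615 and 360 FPKM and Acadvl at 177, 650 and 397 FPKM.

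Acaa2, the thiolase of the last step for medium chains, was at 849, 242 and 262 CPM in controls 1, 2 and 3, and at 219, 1255 and 567 CPM in treated mice 1, 2 and 3. Its log2 fold change of 0.59 (SE 0.70, interval -1.03 to 2.22, edgeR adjusted p = 0.852) was the largest of the 10, but metformin 1 was the lowest of all 6 libraries. Ppara was by far the least abundant member, at 8.25, 1.97 and 6.99 CPM in the controls and at 3.53, 10.2 and 8.49 CPM in the treated mice, from 98 to 426 counts per library. For Ppara, metformin 2 was again highest and control 2 lowest, while metformin 3 stood just above control 1, and the log2 fold change was 0.38 (SE 0.57, edgeR adjusted p = 0.886).

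**Figure D3:**
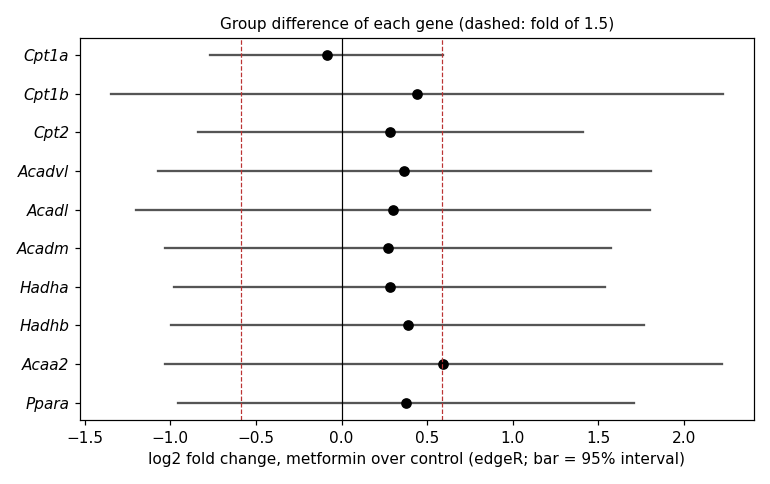
Log2 fold change, metformin over control (x axis), of each of the 10 genes (y axis) in the edgeR fit, with the 95% interval as a bar and dashed lines at a fold of 1.5 in either direction. All 10 intervals include 0 and extend past at least 1 dashed line, and 9 of the 10 estimates lie above 0.

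Over the list, 9 of 10 log2 fold changes were above 0, against 51.3% of all tested features, with a median of 0.33 beside a median of 0.01 over all features. Single mice set that direction. Without metformin 2, 1 of the 10 was above 0 and the median was -0.20, and without control 2, 5 were above 0 and the median was 0.02. Without control 1 the median was 1.02, with 9 above 0 and a smallest unadjusted p of 0.0643, for Hadhb, and without control 3 all 10 were above 0. The thresholds were passed by 0 of the 10 in every one of these fits. The intervals were wide: that of Hadhb ran from -0.99 to 1.77, so changes of 1.5-fold in either direction could not be detected or discounted at 3 mice per group.

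In levels per transcript length, on the FPKM scale, the members spanned a wide range. Hadhb led at a mean of 516 over the 6 mice, followed by Acadvl at 369, Acadm at 353, Acadl at 348 and Acaa2 at 333, then by Hadha at 176, Cpt2 at 90.9, Cpt1b at 66.0, Cpt1a at 8.12 and Ppara at 1.85. Acadvl, Acadm, Acadl and Acaa2 traded places between mice, since each exceeded the next in 3 or 4 of 6 libraries. All other neighbours in this order kept it in 6 of 6 libraries.

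The order of the mice was the feature that the members shared. The sequence metformin 2, control 1, metformin 3, control 3, with the other 2 libraries below, was noticed in these data and holds for 8 of the 10 genes, all but Cpt1a and Ppara, and for 1.25% of all tested features. Metformin 2 was the highest library for 9 of the 10, against 23.8% of all features. The ratio of the highest to the lowest library had a median of 4.07 over the 10 genes and of 1.89 over all features. Control 1 exceeded control 2 by a median of 3.49-fold and metformin 2 exceeded metformin 1 by a median of 3.32-fold, while over all features these medians were 0.97 and 0.99. Both ratios were at least 1.5 for 9 of the 10 genes, all but Cpt1a, and for 5.73% of all features.

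Of 7 markers of brown and beige adipocytes, 3 had this order of the first 4 libraries. Ucp1, the uncoupling protein that makes heat, was at 1544, 188 and 244 CPM in controls 1, 2 and 3, and at 55.7, 3414 and 630 CPM in treated mice 1, 2 and 3, a 61.3-fold range. From the highest mouse to the lowest, Cpt1b, Cpt2, Acadvl, Acadl and Acaa2 ranked the 6 mice exactly as Ucp1 did. Cidea, a lipid droplet protein of brown fat, was at 809, 183 and 189 CPM in the controls and at 134, 972 and 401 CPM in the treated mice. Summed over 7 brown fat markers, the level was 512 to 2926 CPM in control and 307 to 5024 CPM in metformin-treated mice, with none of the 7 at 0 in any library, and metformin 2 and control 1 were the 2 highest libraries for 6 of them, all but Dio2, as they were for 8 of the 10 members and 12.3% of all features. None of the 7 was past the thresholds, and the lowest edgeR adjusted p among them was 0.767, for Dio2, the deiodinase that activates thyroid hormone. With the mean log2 level of these markers as an added term, an alternative chosen after the data had been seen, 0 of the 10 genes were past the thresholds, the SE of Acadvl went from 0.62 to 0.17 and that of Acaa2 from 0.70 to 0.17, and the median log2 fold change was 0.03. For Cpt1a the SE was 0.31 with that term and 0.29 without it. Most of these markers and most members had the same 2 highest libraries, so a smaller SE with this term was built in. It does not show where the spread came from, and no such term was fitted for muscle markers.

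**Figure D4:**
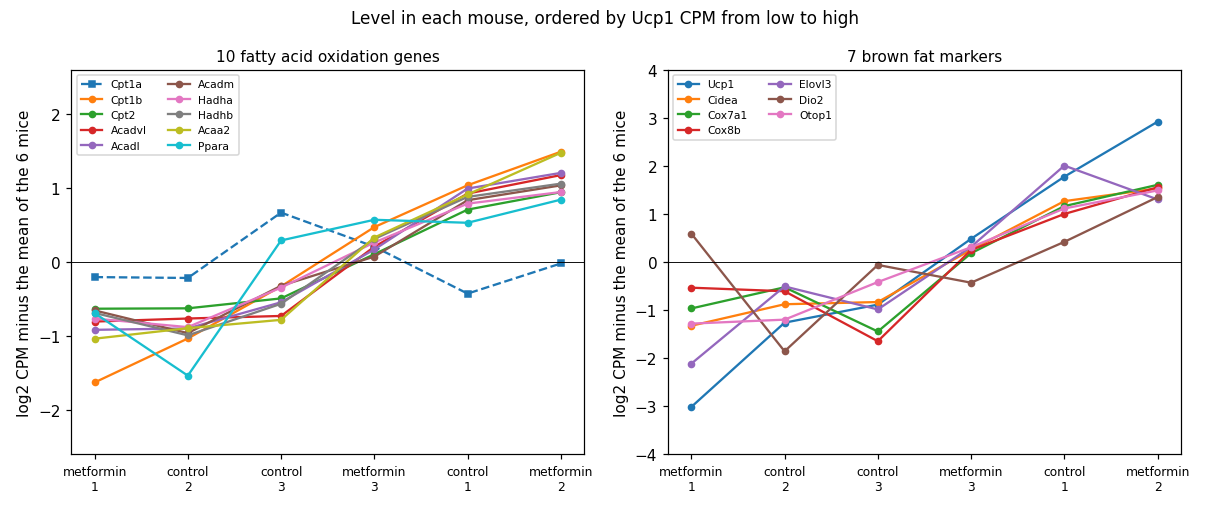
Log2 CPM minus the mean of the 6 mice (y axis) for the 10 fatty acid oxidation genes on the left and 7 brown fat markers on the right, with the mice on the x axis ordered by Ucp1 from low to high. All members but Cpt1a (dashed) are higher in control 1 and metformin 2, at the right end, than in metformin 1 and control 2, at the left end.

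Markers of other cell types were summed in the same way. The summed level of 8 adipocyte markers was 10948 to 13797 CPM in control and 13746 to 18645 CPM in metformin-treated mice, and metformin 1, low for the oxidation genes, was second highest. The 10 skeletal muscle markers, counted because muscle also expresses Cpt1b, summed to 17813 to 19876 CPM in control and to 15326 to 30891 CPM in metformin-treated mice. From high to low that sum ran metformin 2, metformin 3, control 1, control 3, control 2 and metformin 1, which is the order of Cpt1b with metformin 3 and control 1 exchanged. Mb, myoglobin, ranged over 6.12-fold, with metformin 2 and control 1 on top and metformin 1 lowest. Metformin 2 was the highest library for 9 of the 10 muscle markers, as it was for 9 of the 10 members. Metformin 2 and control 1 were the 2 highest libraries for 2 of the 10 muscle markers, and the median range of the 10 was 2.09-fold. Acta1, skeletal actin, and Ckm, muscle creatine kinase, were detected in all 6 libraries. Epithelial markers were lowest in metformin 2, at 577 CPM, and highest in control 2, at 1604 CPM. The milk genes, high in both controls 1 and 2, did not share the order of the members, since for 8 of the 10 genes control 1 was next to the highest library and control 2 the lowest or next to it. The part of brown fat, muscle or epithelial cell content in the levels of the 10 genes was not tested.

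Among 71 further genes of the pathway and its control, 68 were tested, and 1 was past the thresholds, beside 1.7% of all features. Of their log2 fold changes 49 were above 0 and 19 below, where 51.3% of all features were above 0. Metformin 2 was the highest library for 39 of the 68, against 23.8% of all features. The gene past the thresholds was Acsl4 (chrX:142317993-142390535, minus strand), an acyl-CoA synthetase that prefers arachidonic acid and other polyunsaturated chains. It was at 56.1, 50.5 and 37.2 CPM in controls 1, 2 and 3, and at 30.2, 25.0 and 23.4 CPM in treated mice 1, 2 and 3, so every treated mouse lay below every control. The groups did not overlap for 3 of the 68 genes, Acsl4, Rxrg and Acox3, beside 13.2% of all features. Acsl4 fell by 0.87 on the log2 scale (SE 0.20, unadjusted p = 0.00253, edgeR adjusted p = 0.539). In DESeq2 the change of Acsl4 was -0.87 with an adjusted p of 0.024. Leaving out 1 mouse gave changes from -1.02 to -0.74, and these fell short of the thresholds when the mouse left out was control 1 (-0.74), control 2 (-0.83), metformin 2 (-0.84) or metformin 3 (-0.79). Epithelial markers were lower in metformin along with Acsl4, in 8 of 8 genes, beside 7755 of all 15925 features. Their median log2 fold change was -0.69. Only 1 of the 8 was past the thresholds and only 1 had no overlap between the groups, in both cases Cdh1, the epithelial cadherin (-0.85, edgeR adjusted p = 0.541). The summed epithelial level was highest in control 2, at 1604 CPM. Metformin 1, at 896 CPM, exceeded controls 1 and 3, at 862 and 890 CPM, whereas Acsl4 was highest in control 1. The part of epithelial content in the change of Acsl4 was not tested. The other 4 long-chain synthetases did not pass, among them Acsl1, the main form of adipocytes, with a log2 fold change of 0.51 (SE 0.39).

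Other genes of fatty acid breakdown had differences within the spread of the mice. In the carnitine group, 0 of 5 passed: the log2 fold change was 0.34 for Crat, carnitine acetyltransferase, 0.47 for Slc25a20, the carnitine-acylcarnitine carrier of the inner membrane, and 0.12 for Slc22a5, the carnitine importer of the cell. Slc25a20 had the mouse order of the members, at 288, 90.1 and 119 CPM in the controls and 91.7, 413 and 183 CPM in the treated mice. Of 12 further beta-oxidation enzymes 0 passed, with 11 above 0 and a median of 0.34, and metformin 2 was the highest library for 10 of the 12. Those with the smallest p were Acad10 at 0.50, Acad12 at 0.44 and Hsd17b10, a short-chain dehydrogenase, at 0.29. The electron transfer flavoprotein, which takes electrons from the acyl-CoA dehydrogenases, had log2 fold changes of 0.31 for Etfa, 0.73 for Etfb and 0.17 for Etfdh, its oxidoreductase, with 0 of 3 past the thresholds and metformin 2 and control 1 on top for all 3.

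Ketone body genes gave 0 of 5 past the thresholds. Bdh1, the dehydrogenase of hydroxybutyrate, was at 15.6, 14.8 and 4.52 CPM in controls 1, 2 and 3, and at 3.11, 8.06 and 5.31 CPM in treated mice 1, 2 and 3, so that control 3 lay within the treated range (log2 fold change -1.08, SE 0.52). It passed only without control 3, at -1.46. The genes that set malonyl-CoA, the inhibitor of CPT1, also gave 0 of 3, with log2 fold changes of 0.57 for Mlycd, the decarboxylase that removes it, and of 0.29 and 0.14 for Acaca and Acacb, the carboxylases that make it.

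Of 12 nuclear receptors and coregulators 0 passed the thresholds, with 8 log2 fold changes above 0. Rxrg, a retinoid X receptor and so a possible partner of PPARA, was at 16.2, 16.5 and 14.8 CPM in controls 1, 2 and 3, and at 23.7, 29.9 and 19.9 CPM in treated mice 1, 2 and 3. The groups did not overlap for Rxrg, as they did not for 13.2% of all features. Its unadjusted edgeR p of 0.0107 narrowly missed the thresholds (log2 fold change 0.63, SE 0.19, edgeR adjusted p = 0.541). Rxrg passed them in DESeq2 (unadjusted p = 0.00539), with upper quartile scaling (0.00802), with log2 FPKM at a pseudocount of 0.1 (0.00887) and without metformin 3 (0.00566). It did not pass in the other fits, among them limma-voom, the replicate block, the brown fat marker term and every other fit without 1 mouse. Klf15, a transcription factor of fasting metabolism, had a log2 fold change of 0.34 and Pparg, the master regulator of adipocytes, one of 0.42. Without control 3 Pparg passed, at 0.85.

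Of 14 PPAR target genes, 11 were tested and 0 passed, with 7 above 0. Cyp4a10, Cyp4a14 and Fabp1, strong PPARA targets in mouse liver, were left out by the filter at no more than 0.293 CPM in any library. Plin5, a lipid droplet protein of oxidative tissues, was at 63.9, 16.4 and 18.4 CPM in the controls and at 30.1, 113 and 47.9 CPM in the treated mice, which gave a log2 fold change of 0.96 (SE 0.64), again with metformin 2 and control 1 highest. Angptl4, a secreted inhibitor of lipoprotein lipase, was at -0.69 (SE 0.44) and Acot2, a mitochondrial acyl-CoA thioesterase, at 0.74 (SE 0.42). With the brown fat marker term Plin5 was past the thresholds, at a log2 fold change of 0.72. In peroxisomal beta-oxidation 0 of 12 passed, with 10 above 0, and metformin 2 was the highest library for 9 of the 12. The smallest p belonged to Acox2, an oxidase of branched chains, at 0.71, Acox3 at 0.24 and Acaa1a, a peroxisomal thiolase, at 0.37.

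**Figure D5:**
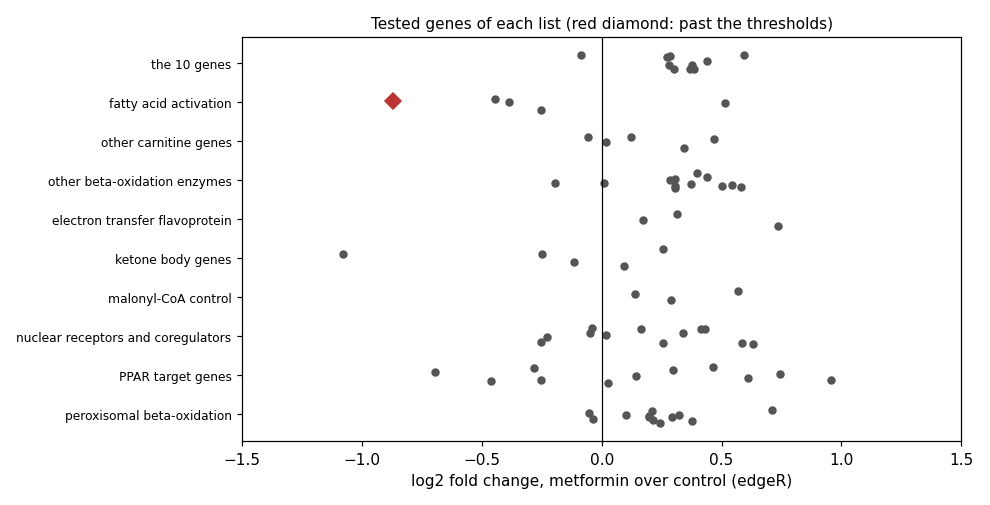
Log2 fold change, metformin over control (x axis), of every tested gene in the 10 members and 9 related lists (y axis), with 1 point per gene, spread vertically only for legibility. Acsl4 is the single red diamond past the thresholds, at -0.87, and the 10 members sit between -0.09 and 0.59.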

How the data were processed

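RNA of 6 glands was sequenced as paired ends by a service provider of the authors, who trimmed adapters, filtered reads by quality and aligned them to GRCm38. HISAT2 and StringTie are named, without versions, in the processing notes of the submitters. The tool that counted reads, its annotation and its strand setting were not given in the sources used here. Deposited by the authors were raw counts per gene, with no normalization, and FPKM values that they computed. In the present work the counts were tested in R 4.3.3 by edgeR 4.0.16 (filterByExpr, TMM, quasi-likelihood F test, Benjamini-Hochberg over all 15925 features), with SE as the absolute log2 fold change over the square root of F. Recovery of known changes by the fit was tested on simulated data. Alternatives were DESeq2 1.42.0 (the tool of the authors), limma 3.58.1 with voom or log2 FPKM, other scalings and filters, the replicate number as a block, a brown fat marker term and each mouse left out. Shared exonic bases came from the GENCODE annotation of GRCm38, and promoters from RefSeq on GRCm38.p6. Members and gene lists were chosen with earlier results of these data known. All 10 members are named, and from each related list the genes past the thresholds or otherwise the 3 with the smallest p. Of the ketone body list, 2 genes that this rule names are not reported here. Marker genes such as Ucp1, Mb and Cdh1, Acsl1 and the 3 genes that the filter left out were named after their values were seen.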

Additional observations from a re-analysis of the deposited data

How the results depend on the processing

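The count of members past the thresholds was 0 in all 19 alternatives, and in 155 of 170 fits of single members the sign stayed as reported. The sign of the other 15 turned: 13 when 1 mouse was left out, and those of Cpt1b (-0.17) and Acadl (-0.018) with the brown fat marker term, chosen after the data had been seen. Over the fits without 1 mouse the log2 fold change ran from -0.29 to 0.32 for Cpt1a, -0.38 to 1.23 for Cpt1b, -0.21 to 0.84 for Cpt2, -0.26 to 1.16 for Acadvl, -0.37 to 1.11 for Acadl, -0.29 to 0.93 for Acadm, -0.19 to 0.90 for Hadha, -0.11 to 1.16 for Hadhb, -0.20 to 1.43 for Acaa2 and -0.038 to 0.73 for Ppara, and 1 to 10 members were above 0. Features past the thresholds, 271 in edgeR, were 519 in DESeq2 and 118 with the replicate block. With log2 FPKM at a pseudocount of 1 there were 165, or 63 when no filter was applied to those values, while edgeR without a filter gave 360. There were 1199 at an unadjusted edgeR p under 0.05, and 107 to 666 past the thresholds without 1 mouse. At an adjusted p under 0.05 there were 0 in edgeR or limma-voom but 200 in DESeq2. For related genes the count of 1 became 2 in DESeq2, with upper quartile scaling, with log2 FPKM at a pseudocount of 0.1, with the brown fat marker term and at an unadjusted edgeR p under 0.05, 0 at an adjusted edgeR or limma-voom p under 0.05 but 1 (Acsl4) in DESeq2, and 0 to 3 without 1 mouse. The cause of these shifts was not tested. Same-numbered mice did not deviate together from their group means (r = -0.349, -0.137 and -0.0133 over features). With means of only 3 mice, these values cannot exclude a pairing by replicate number. The count of members past the thresholds was 0 with the block as without it. The difference in the log2 ratio of Cpt1a to Cpt1b, -0.24, ran from -1.03 to 0.46 without 1 mouse, and that of Hadha to Hadhb, -0.16, from -0.24 to -0.09. Counts ran from 98 for Ppara in control 2 to 87469 for Hadhb in metformin 2.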
